A study of Mus musculus with 5 samples.

Results

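Hypoxia-inducible genes are described here in mouse embryonic fibroblasts (MEFs) that were moved into 5C medium. The set holds *Hif1a* and 9 of its known targets outside core glycolysis, which are *Vegfa*, *Bnip3*, *Egln3*, *Car9*, *Ankrd37*, *Pdk1*, *Adm*, *Ndrg1* and *P4ha1*. The 10 genes were chosen by name as known members of the pathway. That rule uses no measured value, but earlier results of these data were known when the genes were chosen. All 10 were found among the 27729 genes in the deposited data.

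The cells were MEFs of strain ICR, the connective tissue cells of the mouse embryo, grown in medium with serum until day 0. From then on they were kept in serum-free 5C medium, which is DMEM/F12 with vitamin C, LIF, bFGF, 2-mercaptoethanol and the N2 supplement, and which the labels name 6C. Total RNA was sequenced on day 0 and on days 2, 5, 10 and 14, with 1 library per time point. All later libraries share the strain, the starting cells and the medium, and the day 0 library is the only one in serum, so removal of serum, addition of the 5C factors and time in culture cannot be told apart. The labels name no oxygen level and no hypoxia treatment. The last library is labelled day 14, although the protocol text beside it names day 15, and the number of embryos behind the MEFs was not given in the labels.

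Hypoxia-inducible factor 1 (HIF-1) is a transcription factor made of an alpha subunit, which *Hif1a* encodes, and a beta subunit, which *Arnt* encodes. In cells with enough oxygen, prolyl hydroxylases mark the alpha subunit and the VHL ubiquitin ligase has it destroyed, so that HIF-1 is controlled mainly through its protein and not through its mRNA. When oxygen is low, or when growth factor signalling raises its synthesis, HIF-1 binds a short motif near its target genes and switches on glucose use, removal of mitochondria, growth of vessels and collagen processing. mRNA levels, the only thing measured here, do not show the amount of HIF-1 protein.

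With 1 library per time point, there was no test between days and no p-value. Values are expected counts, the estimated numbers of reads per gene, scaled to equal effective library sizes (normalized counts). A change is the log2 ratio of a later day to day 0 after adding 1 to the normalized counts, and its 95% interval in parentheses covers counting error only. A gene was called higher or lower, and is said to have risen or fallen, when it changed 2-fold or more and reached 10 expected counts in at least 1 library. A total of 13346 genes reached that count and were kept, and so did all 10 hypoxia-inducible genes, although *Car9* and *Ankrd37* passed through 1 library each. In bulk RNA, fewer cells of a type and less RNA per cell cannot be told apart.

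Library totals ran from 2253748 expected counts (day 2) to 3890334 (day 0). A count of 0 allowed a share of up to 3 counts per library, or between 0.771 and 1.33 per 1000000. On day 2, the transcript Gm42418 alone took 4.79% of the counts against at most 0.109% in the other libraries. All 11 fibroblast markers had 10 or more counts in every library, and their summed TPM (a level per gene length, scaled to one total per library) lay between 8760 and 11685. Within that sum, 3, 4, 3 and 4 markers rose and 3, 3, 5 and 4 fell on days 2, 5, 10 and 14. Of all genes kept, 15.2%, 20.2%, 28.7% and 24.5% rose and 13.1%, 13.6%, 22.3% and 19.9% fell on these days. The sums for markers of other cell types differed between the libraries. The summed TPM of 10 macrophage markers was 62.1, 449, 1620, 1141 and 677 from day 0 to day 14. That of 8 Schwann cell and neural crest markers was 12.8, 18.0, 214, 1998 and 2181 in the same order, and that of 7 endothelial markers was 23.3 on day 0 and 2.64 on day 14. The 8 neuronal markers summed to between 51.6 and 120, with *Rbfox3* at 0 in all 5 libraries, the 6 red blood cell markers to at most 9.31, and the 6 muscle markers to 217 on day 0 and 11.7 on day 14. The part of these cell types in the changes of the hypoxia-inducible genes was not tested.

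The core of the motif that HIF binds, the hypoxia response element, is ACGTG or GCGTG, and it was searched on both strands of the RefSeq promoters (GRCm38.p6), from 250 bases before to 50 bases after each start. The promoter of *Ndrg1* was not analysed here. Of the other 9 genes, 9 had a match in at least 1 of their promoters, and 9 of their 11 promoters held one, against 46.7% of the 27025 genes and 43.8% of the 32851 promoters in the table. Such a match also occurs inside the E-box CACGTG. Outside of E-boxes, 9 of the 9 genes still had a match, against 43.4% of the genes in the table. For *Car9* and *Vegfa*, the window with the matches overlaps an exon that GENCODE M21 gives the gene, and no match lay before that exon. A match is a run of letters and not a measured binding site, and a distant site, as is known for several HIF targets, would not lie in these windows.

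The sequences before the start are shown for 4 genes that fell on several days and for the pair of genes that rose together on day 10, so that the genes can be compared. They are written 5′ to 3′ along the strand of the gene with the matches in capitals, a match on the other strand reading CACGT or CACGC. For *Bnip3* the last bases, which GENCODE M21 has in its first exon, were left out.
P4ha1, chr10:59323046-59323295, plus strand: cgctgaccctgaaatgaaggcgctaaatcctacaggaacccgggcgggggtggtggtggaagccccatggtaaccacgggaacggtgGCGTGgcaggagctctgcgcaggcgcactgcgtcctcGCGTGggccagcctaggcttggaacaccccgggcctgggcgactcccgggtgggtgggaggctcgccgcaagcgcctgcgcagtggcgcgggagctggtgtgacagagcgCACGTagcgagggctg
Egln3, chr12:54203875-54204124, minus strand: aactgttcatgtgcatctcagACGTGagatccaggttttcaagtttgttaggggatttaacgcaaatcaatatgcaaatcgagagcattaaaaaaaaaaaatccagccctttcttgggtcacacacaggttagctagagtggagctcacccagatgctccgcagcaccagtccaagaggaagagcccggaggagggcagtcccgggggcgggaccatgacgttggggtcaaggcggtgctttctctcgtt
Adm, chr7:110627407-110627656, plus strand: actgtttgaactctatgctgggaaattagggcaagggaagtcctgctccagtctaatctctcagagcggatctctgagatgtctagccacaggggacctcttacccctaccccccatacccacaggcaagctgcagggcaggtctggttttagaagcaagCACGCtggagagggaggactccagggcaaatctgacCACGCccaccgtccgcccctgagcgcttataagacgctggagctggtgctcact
Bnip3, chr7:138909520-138909756, minus strand: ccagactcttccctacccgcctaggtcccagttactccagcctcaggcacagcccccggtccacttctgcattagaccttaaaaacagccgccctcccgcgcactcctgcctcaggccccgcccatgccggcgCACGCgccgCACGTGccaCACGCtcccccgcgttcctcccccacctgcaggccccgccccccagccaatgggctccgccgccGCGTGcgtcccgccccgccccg
Hif1a, chr12:73907617-73907866, plus strand: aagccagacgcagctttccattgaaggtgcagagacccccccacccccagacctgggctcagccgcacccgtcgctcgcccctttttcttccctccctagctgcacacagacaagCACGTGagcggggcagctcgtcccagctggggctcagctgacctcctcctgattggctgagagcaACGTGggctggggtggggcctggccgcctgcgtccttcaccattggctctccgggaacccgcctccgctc
Vegfa, chr17:46032378-46032627, minus strand: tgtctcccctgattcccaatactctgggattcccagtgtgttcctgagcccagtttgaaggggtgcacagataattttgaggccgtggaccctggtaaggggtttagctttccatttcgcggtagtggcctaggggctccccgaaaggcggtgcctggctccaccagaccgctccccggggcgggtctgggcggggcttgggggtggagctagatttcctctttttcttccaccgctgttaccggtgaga
The *P4ha1* window held 3 separate matches, the *Adm* window 2 on the other strand, and the *Egln3* window 1, far from the start at 229 to 225 bases before it. The *Bnip3* window held the most, 5 matches, of which 2 are the opposite strands of 1 E-box. *Hif1a* itself had 3 matches, 2 of them in 1 E-box. Its window lies inside the span that GENCODE M21 gives the gene, and the bases after its RefSeq start were not found in a GENCODE M21 transcript of *Hif1a*. The window before the first *Vegfa* start held none, and the 2 matches of *Vegfa* lay in its second, internal promoter. The bases after that second start were not found in a GENCODE M21 transcript of *Vegfa* either. Since all 9 genes searched had a match, having one could not set genes that rose apart from genes that fell.

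By normalized counts, most of the 10 genes were at their highest in the fibroblasts before the change of medium. On the TPM scale, *Bnip3* and *Pdk1* were highest on day 10 instead. On day 2, 5 of them had fallen (*Ankrd37*, *Adm*, *Bnip3*, *Egln3* and *Ndrg1*) and 0 had risen, against 13.1% of all genes kept called lower and 15.2% called higher. On day 5, 6 had fallen and 0 had risen, against 13.6% and 20.2% of all genes. On day 10, 5 had fallen and 3 had risen (*Hif1a*, *Vegfa* and *Ndrg1*), against 22.3% and 28.7%, and on day 14, 5 had fallen and 1 had risen (*Ndrg1*), against 19.9% and 24.5%. The same shares of all genes kept are the comparison for the counts of every gene list below. The median changes of the 10 genes were -0.98, -1.13, -0.92 and -1.09 in order of day, beside medians of all genes kept of -0.03, 0.05, 0.14 and 0.07. The median on day 14 was also -1.09 with *Ankrd37*, which had no count left, set at its bound. Over the course, *Ndrg1* was called lower on day 2 and higher on days 10 and 14, and *Car9* was called on no day. At 4-fold, 1, 2, 4 and 3 genes were lower on days 2, 5, 10 and 14, against 2.92%, 2.78%, 7.92% and 6.11% of all genes kept, and 0 were higher on each of these days, against 5.36%, 8.7%, 13.9% and 11.7%.

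**Figure D1:**
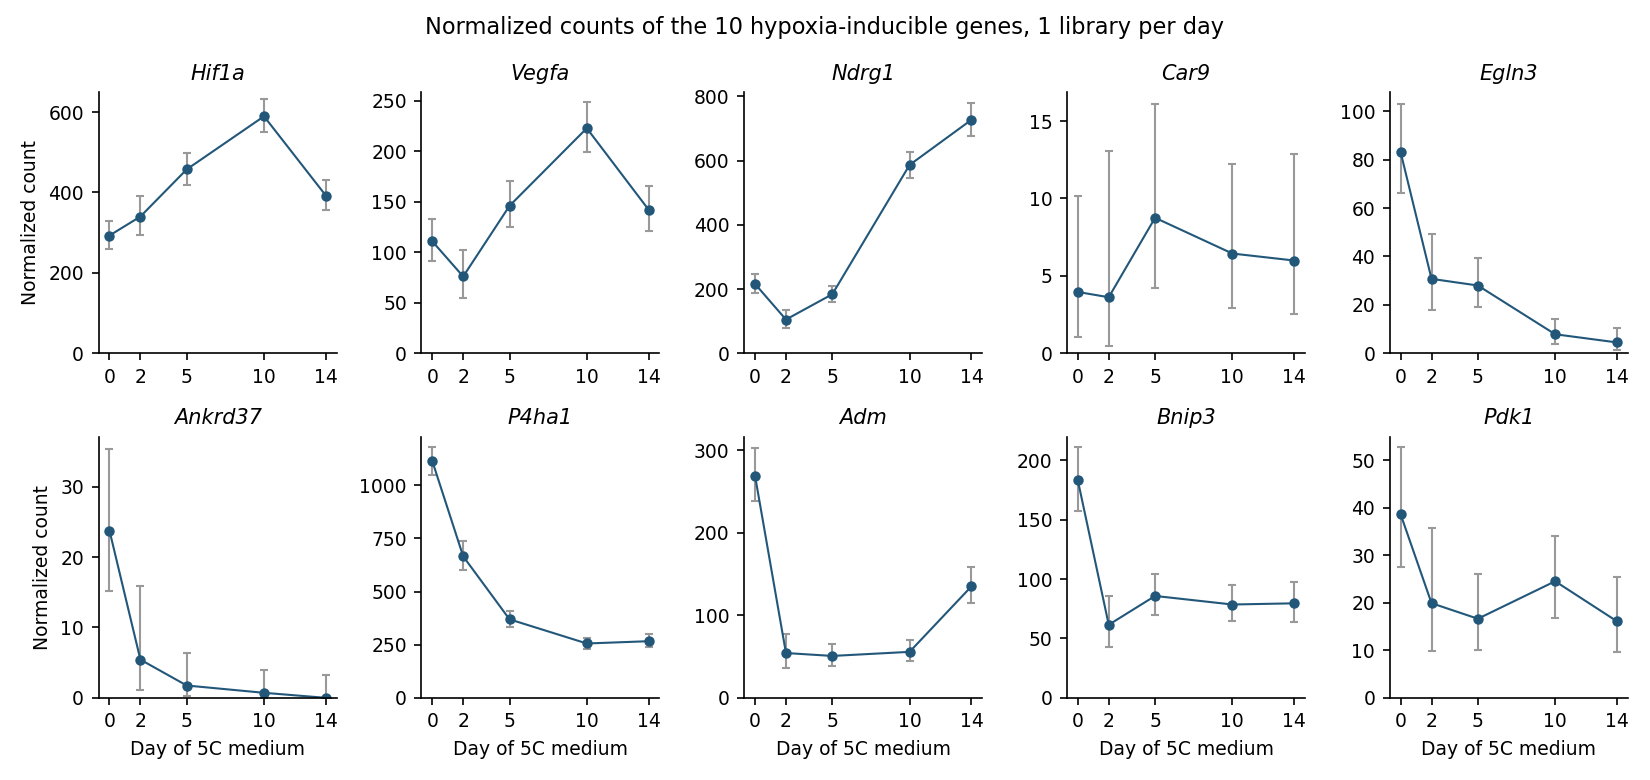
Normalized counts (y axis, from 0, a scale of its own for each gene) of the 10 hypoxia-inducible genes by day of 5C medium (x axis), with 1 library per point and bars for the 95% counting interval. *Hif1a* and *Vegfa* peak on day 10, *Ndrg1* is highest on day 14, and *Egln3*, *Ankrd37*, *P4ha1*, *Adm*, *Bnip3* and *Pdk1* are highest on day 0.

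Levels per gene length changed in rank too. On the TPM scale, *P4ha1* was the most abundant of the 10 genes on day 0 with 156, on day 2 with 78.5 and on day 5 with 80.0. *Ndrg1* held the first place on days 10 and 14 with 165 on both. At the other end, *Car9* was lowest on days 0 and 2 with 0.76 and 0.64, *Pdk1* on day 5 with 2.28, and *Ankrd37* on days 10 and 14 with 1.41 and 0. *Hif1a* moved from the fifth place on day 0 (23.5) to the second on day 10 (101). On day 2, *Adm* (11.6), *Vegfa* (11.2), *Ndrg1* (10.7) and *Bnip3* (10.3) were neighbours in the order at nearly one level.

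*Hif1a* (ENSMUSG00000021109, chr12:73901375-73947530 in GRCm38, plus strand) encodes the oxygen-regulated subunit itself. From day 0 to day 14, the normalized counts of *Hif1a* were 293, 340, 458, 590 and 392. By these counts the mRNA was higher on days 5, 10 and 14 than in the starting MEFs and highest on day 10, when it rose with a change of 1.01 (0.82 to 1.21). The changes on days 2, 5 and 14 were 0.21 (-0.06 to 0.48), 0.64 (0.44 to 0.85) and 0.42 (0.21 to 0.64), none of them 2-fold. On day 2 the interval spans 0, and with TPM the sign turned to -0.05. From day 10 to day 14 the change was -0.59 (-0.76 to -0.42). The call on day 10 lay just inside the threshold. *Hif1a* is a long transcript, and genes of the same length class (1 of 10 classes of equal size) were up by a median of 0.79 on day 10, which left 0.22 after subtraction, and on day 14 the sign turned to -0.04. Antisense genes share exons with *Hif1a*, and also with *Bnip3*, *Car9* and *Ndrg1*, and the library kit does not mark strand, so reads of such pairs cannot be told apart.

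The genes whose course was most like that of *Hif1a*, by the mean absolute difference of log2 change over the 4 later days, were *Foxo3* (0.08), the ubiquitin-conjugating enzyme gene *Ube2h* (0.11) and the fatty acid binding protein gene *Fabp5* (0.11), out of 3269 genes that reached 100 expected counts in each library. *Foxo3*, a transcription factor held back by insulin signalling, had changes of 0.21, 0.71, 0.98 and 0.65 on days 2, 5, 10 and 14. Among the hypoxia-inducible genes, *Vegfa* lay nearest to *Hif1a*, at 0.27.

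The transcripts of 2 other HIF subunits rose as well. *Epas1*, which encodes HIF-2 alpha, had normalized counts of 54.4, 32.6, 195, 356 and 263. It rose on days 5, 10 and 14 with changes of 1.82 (1.41 to 2.30), 2.69 (2.30 to 3.14) and 2.25 (1.85 to 2.71). *Arnt*, the common beta subunit, had normalized counts of 109, 135, 175, 309 and 215 and rose on day 10 with 1.50 (1.20 to 1.82). By normalized counts, transcripts of all 3 subunits were thus highest on day 10. With the length medians subtracted, *Hif1a* was higher on day 2 (0.35) than on day 10 (0.22). *Epas1* and *Arnt* are long transcripts too, and the medians of their length classes were not subtracted from the changes given here.

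Of the *Egln* oxygen sensors, only *Egln3* was called lower on any day by normalized counts. *Egln3* (ENSMUSG00000035105, chr12:54178981-54203860, minus strand) encodes PHD3, a prolyl hydroxylase that is itself a HIF target and so closes a feedback loop. In order of day, *Egln3* gave normalized counts of 83.1, 30.8, 28.0, 7.86 and 4.47, the last from 5 expected counts. It fell on every later day, with changes of -1.41, -1.54, -3.25 and -3.94 (-5.88 to -2.94). The fall came in 2 steps, before day 2 and between days 5 and 10, where the change was -1.71 (-2.97 to -0.81). With TPM, the change on day 5 was -0.76 and missed the threshold, and the other days kept their calls.

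The other *Egln* genes changed less. *Egln1*, the main sensor in most cells, had normalized counts of 233, 116, 131, 150 and 142, with changes of -0.82, -0.63 and -0.71 on days 5, 10 and 14, and on day 2 it lay just short of 2-fold lower, so that it was called on no day. *Egln2* had normalized counts of 392, 568, 340, 220 and 295 and was called on no day either. *Vhl*, which recognises the hydroxylated alpha subunit, rose on day 2 with 1.08 (0.64 to 1.55), from 77.2 to 165, and was at 80.5, 78.1 and 68.8 on the later days. *Elob* and *Rbx1*, subunits of the VHL ligase that also serve other complexes, fell on days 5, 10 and 14, *Elob* to a change of -2.97 on day 10 and *Rbx1* to -1.97. *Elob* is in the shortest length class, which had medians of -0.79, -1.47 and -1.04 on these days. The medians of the length classes were not subtracted from the changes of *Elob* and *Rbx1* given here. Of the 12 genes of this machinery, 1, 2, 4 and 1 rose and 0, 3, 3 and 3 fell on days 2, 5, 10 and 14, with medians of 0.02, -0.29, -0.15 and -0.47.

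Among the secreted signals, *Vegfa* (ENSMUSG00000023951, chr17:46016993-46032369, minus strand), the main growth factor of blood vessels, had normalized counts of 111, 76.0, 146, 223 and 142. The change on day 2 was -0.54 (-1.09 to -0.02), and on day 10 the gene rose by 1.00 (0.69 to 1.33). The changes on days 5 and 14, 0.39 (0.04 to 0.76) and 0.36 (0.00 to 0.72), were under 2-fold. Between days 10 and 14 the change was -0.64 (-0.93 to -0.37), close to that of *Hif1a* over the same step. Like that of *Hif1a*, the call on day 10 lay at the threshold and was lost with DESeq2 size factors, with values of 0.95 for both genes. The genes nearest in course to *Vegfa* among 3270 were the phospholipid flippase gene *Atp11a* (0.03) and *Hnrnpul1* (0.06), whose protein binds RNA.

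*Vegfa* was not called lower on any day, but its signalling receptors were. *Kdr*, the main signalling receptor, had 238 expected counts on day 0 and 2, 6, 9 and 4 on the later days, with a change of -5.68 (-9.08 to -4.16) on day 2. *Flt1*, the high-affinity receptor that also acts as a decoy, had normalized counts of 341 on day 0 and between 47.1 and 65.6 afterwards, and it fell on all 4 days with changes between -2.83 and -2.36. *Flt4*, the receptor for VEGF-C and VEGF-D, fell on days 5, 10 and 14 with -2.15, -3.98 and -5.13 (-7.87 to -3.99), the last from 3 counts. The coreceptor *Nrp1* was called on no day and had its largest change, 0.93 (0.75 to 1.11), on day 10. Of the 9 other VEGF ligands and receptors, 4 fell on day 2 and 5 on each later day, and 1 rose on days 5, 10 and 14, with medians from -1.71 to -0.54. *Kdr* is also one of the 7 endothelial markers, of which *Kdr* and 1 other gene had 10 or more counts on day 0.

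*Adm* (ENSMUSG00000030790, chr7:110627661-110629820, plus strand) encodes adrenomedullin, a peptide that widens vessels and protects cells under stress. The 5 libraries held *Adm* at normalized counts of 269, 54.3, 50.8, 55.7 and 135. It fell at once, with changes of -2.29 (-2.91 to -1.76) on day 2, -2.38 on day 5 and -2.25 on day 10. Then it came back, rising between days 10 and 14 with 1.26 (0.87 to 1.69), so that on day 14 the change from day 0 was -0.99 (-1.29 to -0.70) and just missed the threshold. This was the only one of the 10 genes called higher over that last step, 0 were called lower, and 4.73% of all genes kept were called higher and 8.33% lower. *Adm* is short, and genes of the same length class had medians of -0.86 on day 10 and -0.55 on day 14. With these subtracted, *Adm* still fell on day 10 (-1.39), and its change on day 14 was -0.44. The call on day 14 turned with DESeq2 size factors (-1.01, called lower), and that on day 10 was lost with TPM (-0.87).

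The receptor of adrenomedullin is *Calcrl* joined to a RAMP protein. *Calcrl* had 6, 5, 18, 43.7 and 23 expected counts from day 0 to day 14, and *Ramp2* had 7, 4, 25, 41 and 50. Both rose on days 5, 10 and 14, *Calcrl* up to 2.21 (1.17 to 3.93) on day 10 and *Ramp2* up to 2.53 (1.54 to 4.08) on day 14, from levels at which counting error is wide. Between day 0 and day 10, *Adm* thus fell while *Calcrl* and *Ramp2* rose. Of 5 other genes of this system (*Adm2*, *Calcrl* and *Ramp1* to *Ramp3*) 4 passed the count filter, and 2 of them rose and 2 fell on each of days 5, 10 and 14. The genes that fell thus included another RAMP gene, so the receptor parts did not all move one way.

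Among the genes that act on mitochondria and fuel use, *Bnip3* (ENSMUSG00000078566, chr7:138890836-138909519, minus strand) encodes a receptor that has mitochondria removed by autophagy. From the first to the last library, *Bnip3* was at normalized counts of 183, 61.5, 85.8, 78.6 and 79.6. It fell on all 4 later days with changes of -1.56, -1.09, -1.21 and -1.19, and the counts after day 2 stayed close to one level. With TPM only the call on day 2 was kept. The TPM changes on days 5, 10 and 14 were -0.22, 0.19 and -0.17, where the medians of all genes were 0.61, 1.09 and 0.78, so that the direction on day 10 depends on the scaling. With the length medians subtracted, the fall was called on day 2 alone, with values of -0.96, -0.78 and -0.97 on days 5, 10 and 14. Its close relative *Bnip3l* was called on no day, with normalized counts of 311, 467, 431, 478 and 531 and changes between 0.47 and 0.77. *Pink1*, a kinase that starts another route of mitophagy, rose on days 10 and 14 with 1.04 (0.76 to 1.35) and 1.58 (1.30 to 1.88). Of the 7 other mitophagy genes, 1, 1, 2 and 2 rose and 0, 1, 1 and 0 fell on days 2, 5, 10 and 14.

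*Pdk1* (ENSMUSG00000006494, chr2:71873224-71903858, plus strand) encodes a kinase that shuts off pyruvate dehydrogenase and so keeps pyruvate out of the mitochondria. *Pdk1* was low, with normalized counts of 38.6, 19.9, 16.6, 24.5 and 16.1. It fell on days 5 and 14 with changes of -1.17 and -1.21, and the changes on days 2 and 10 were -0.92 (-2.07 to 0.04) and -0.63 (-1.38 to 0.03), with intervals that span 0. With TPM no day was called and the change on day 10 was 0.56.

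The other kinases of this enzyme did not move as one. *Pdk2* rose on all 4 later days, from a normalized count of 19.8 to 57.9, 74.4, 87.1 and 91.2, with changes from 1.50 to 2.15. *Pdk3* fell on days 10 and 14 with -1.15 and -1.08. *Pdk4* fell on day 2 with -1.30 and rose on day 10 with 1.29. The phosphatase *Pdp1*, which undoes the action of the kinases, rose on days 5, 10 and 14 up to 3.25 (2.78 to 3.84), from 33.6 on day 0 to 328 on day 14. Of the 7 other genes of this group, 2, 3, 4 and 3 rose and 1, 0, 2 and 1 fell on days 2, 5, 10 and 14.

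*Car9* (ENSMUSG00000028463, chr4:43506966-43513729, plus strand) encodes carbonic anhydrase 9, an enzyme on the cell surface that balances pH and one of the most used markers of hypoxia. It had 4, 2, 10, 9 and 6.7 expected counts in order of day, so that it was near the limit of detection in every library. The changes of -0.10 (-3.60 to 2.67), 0.98 (-0.65 to 3.27), 0.59 and 0.50 all had intervals that span 0, and no difference was detectable at this depth. The call between days 2 and 5 (1.08) rests on 2 and 10 counts and its interval spans 0 as well. *Car12*, the other tumour-associated enzyme of the cell surface, fell on day 2 with -1.64 (-3.76 to -0.24), from 25 expected counts to 4, and was called on no later day. Of 7 other carbonic anhydrase genes 5 passed the count filter, of which 1, 2, 3 and 2 rose and 2, 1, 0 and 1 fell. *Car3* rose most, from 4 expected counts before the change of medium to 86 on day 10 and 329 on day 14.

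*P4ha1* (ENSMUSG00000019916, chr10:59323296-59373304, plus strand) encodes the catalytic subunit of collagen prolyl 4-hydroxylase, which collagen needs to fold into a stable triple helix. *P4ha1* was counted at normalized levels of 1114, 666, 369, 256 and 266. Of the 10 genes it had the most counts on day 0. The change on day 2 was -0.74 (-0.92 to -0.57), and it fell on days 5, 10 and 14 with -1.59, -2.12 and -2.06, while the last step between days 10 and 14 was 0.06 (-0.17 to 0.29). With TPM, the change on day 5 was -0.96 and missed the threshold, and days 10 and 14 kept their calls.

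By normalized counts, the other collagen prolyl 4-hydroxylase subunits were lower too or near day 0. *P4ha3* fell on days 5, 10 and 14 with -1.53, -2.03 and -2.24. *P4ha2* fell on days 2 and 10 with -1.18 and -1.29 and was at -0.81 and -0.51 on the other days. *P4hb*, the subunit they share, which is also an abundant disulfide isomerase, was called on no day and had changes between -0.62 and 0.02. By normalized counts, all 3 alpha subunits were lower than day 0 on every later day. With TPM, *P4ha2* was higher on day 14 (57.75) than on day 0 (47.41).

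*Ndrg1* (ENSMUSG00000005125, chr15:66929318-66969640, minus strand) encodes a protein of stress and differentiation that is abundant in myelinating Schwann cells. By normalized counts, it was the only one of the 10 genes called higher on day 14. A rise on that day was not particular to it, since 10 of 32 other HIF targets rose and 11 fell. The shares of all genes kept on that day were 24.5% higher and 19.9% lower. From day 0 to day 14, *Ndrg1* had normalized counts of 216, 105, 184, 586 and 727. It fell on day 2 with a change of -1.03, was back near day 0 on day 5 with -0.23 (-0.51 to 0.05), and rose on days 10 and 14 with 1.44 and 1.75 (1.53 to 1.97). With quantile normalization, the change on day 2 was -0.87 and not called. The largest step lay between days 5 and 10, with 1.67 (1.45 to 1.90). Of the 10 genes, 1 was called higher and 1 lower over that step, against 12.8% and 9.5% of all genes kept. Over the same step, the summed TPM of the Schwann cell and neural crest markers went from 214 to 1998, with all 8 markers at 10 or more counts on day 10. Their part in the rise of *Ndrg1* was not tested. *Ndrg2* rose on days 2 and 14 with 2.06 and 1.20, and *Ndrg3* was called on no day.

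*Ankrd37* (ENSMUSG00000050914, chr8:45996902-46005707, minus strand) encodes a small ankyrin repeat protein of little known function whose mRNA is strongly induced by HIF-1 in many cells. It had 24 expected counts on day 0 and then 3, 2, 1 and 0 on days 2, 5, 10 and 14. It fell on every later day, with -1.95 (-4.50 to -0.41) on day 2, then -3.17 (-6.89 to -1.75) and -3.85 (-10.42 to -2.44) on days 5 and 10, and in the last library it was at least 8.86-fold lower, taking 3 counts in that library as the floor. It passed the count filter through day 0 alone, where it was highest, and so could only have been called lower. *Ankrd37* is the shortest of the 10 genes, and genes of its length class had medians of -0.79, -1.47 and -1.04 on days 5, 10 and 14. After subtraction it was still called lower on all 4 days, with changes between -3.59 and -2.16. *Ufsp2* and *Lrp2bp* share exons with it on the other strand, and without strand marks their reads could not be separated from its own.

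**Figure D2:**
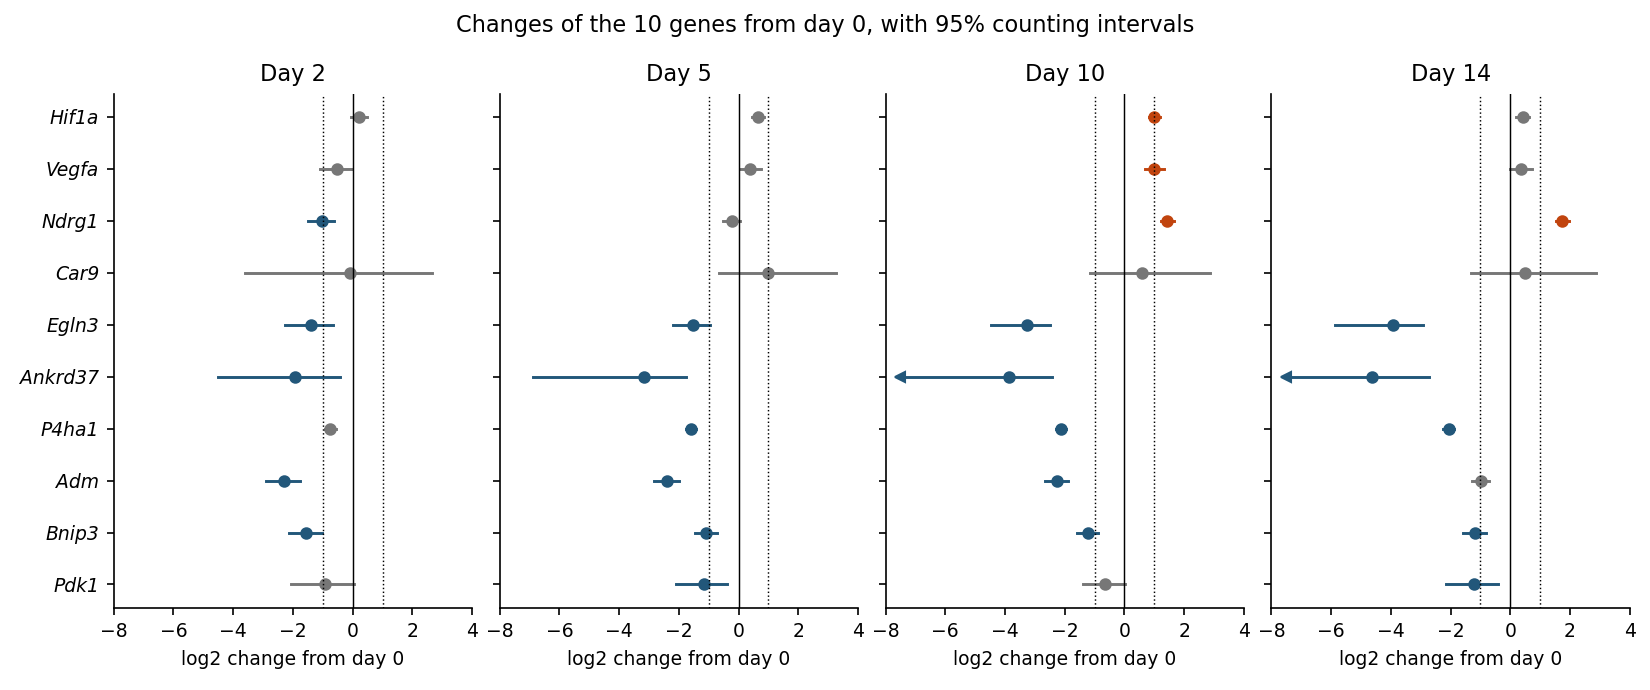
Log2 changes from day 0 (x axis) of the 10 genes (y axis) on days 2, 5, 10 and 14, with 1 library per day, lines for the 95% counting interval and dotted lines at 2-fold; orange marks genes called higher, blue genes called lower, grey genes not called, and an arrow an interval that goes on past the left edge. *Egln3*, *Ankrd37* and *Bnip3* are blue on all 4 days and *Ndrg1* passes from blue on day 2 to orange on days 10 and 14.

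Taking the steps between neighbouring days, the 10 genes were called most often at the first step. Between days 2 and 5, *Car9* was called higher and *Ankrd37* lower, both from 10 counts or fewer, against 19.0% and 12.5% of all genes kept. *Hif1a*, *Vegfa*, *Ndrg1* and *P4ha1* had intervals that did not span 0 at every one of these 3 later steps except *P4ha1* from day 10 to day 14. By course over the 4 days, *Bnip3* and *Pdk1* were nearest to each other (0.33), *Egln3* and *Ankrd37* were nearest to each other (0.87), *Adm* lay nearest to *Bnip3* (0.82), *P4ha1* to *Pdk1* (0.73) and *Ndrg1* to *Vegfa* (0.74).

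Other genes described as HIF targets outside core glycolysis went both ways. Of 32 such genes, 3, 7, 8 and 10 rose and 12, 10, 10 and 11 fell on days 2, 5, 10 and 14. Among all genes kept, 15.2%, 20.2%, 28.7% and 24.5% rose and 13.1%, 13.6%, 22.3% and 19.9% fell. The medians of the 32 genes were -0.53, 0.29, -0.01 and 0.01, against -0.98, -1.13, -0.92 and -1.09 for the 10 genes. Large falls were seen in *Slc16a3* and *Lox*. *Slc16a3*, which exports lactate, had normalized counts of 509, 66.9, 10.5, 2.86 and 3.58, with a change of -7.05 on day 10. *Lox*, which crosslinks collagen, fell to a change of -4.04 on day 14.

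Examples of targets that rose, chosen after their values were seen, are *Angptl4*, *Pfkfb4* and *Kdm3a*. *Angptl4*, an inhibitor of lipoprotein lipase, rose on all 4 later days, from a normalized count of 130 to 397, 713, 492 and 909. *Pfkfb4*, which makes a regulator of glycolysis, rose on days 10 and 14 up to 3.67 (3.24 to 4.21). *Kdm3a*, a histone demethylase, rose on days 10 and 14 with 1.66 and 1.38. In core glycolysis, which was left out of the set by its rule, 13 of 17 genes fell on day 10 and 1 rose, with a median of -2.35, and *Gapdh* was at -3.72 and *Eno1* at -4.15.

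**Figure D3:**
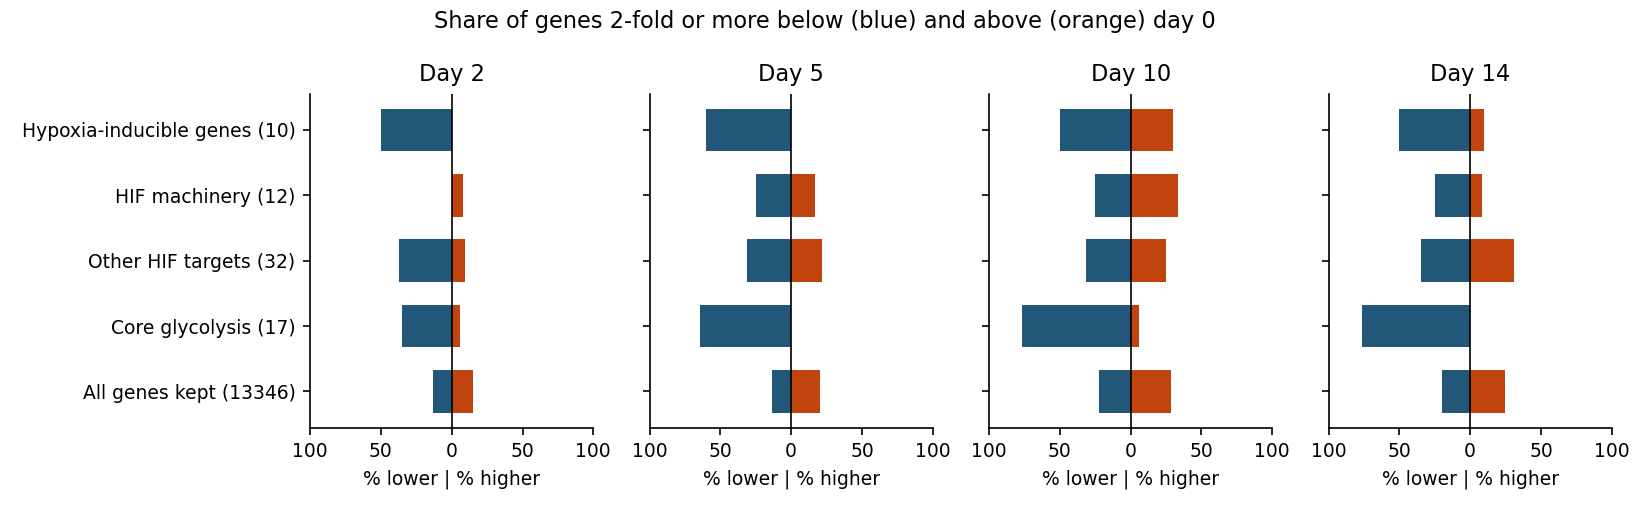
Share of genes (x axis, in percent) called 2-fold or more lower (blue, to the left) and higher (orange, to the right) than day 0 on days 2, 5, 10 and 14 for the 10 hypoxia-inducible genes, 12 genes of the HIF machinery, 32 other HIF targets, 17 genes of core glycolysis and all 13346 genes tested. Core glycolysis shows the longest blue bars from day 5 on, with 13 of 17 genes lower on days 10 and 14, while the other HIF targets have bars on both sides on every day.

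How far the rises reach depends on the scale. With TPM, the median of all genes kept was itself -0.20, 0.61, 1.09 and 0.78 on the 4 later days, while it was at most 0.14 with normalized counts. Taken relative to that shift, the change on day 10 was 0.96 for *Hif1a*, 1.31 for *Vegfa*, 1.51 for *Ndrg1*, -0.91 for *Bnip3*, -1.97 for *Adm*, -2.18 for *P4ha1*, -2.94 for *Egln3* and -3.30 for *Ankrd37*. The median of the 10 genes relative to all genes was -0.82, -0.95, -0.72 and -0.88 with TPM and -0.94, -1.17, -1.06 and -1.16 with normalized counts on days 2, 5, 10 and 14. *Egln3*, *Ankrd37* and *P4ha1* were called lower and *Ndrg1* higher on day 10 under each of the scalings shown, whereas *Hif1a* and *Vegfa* were above 0 under each of them and past 2-fold only under some.

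**Figure D4:**
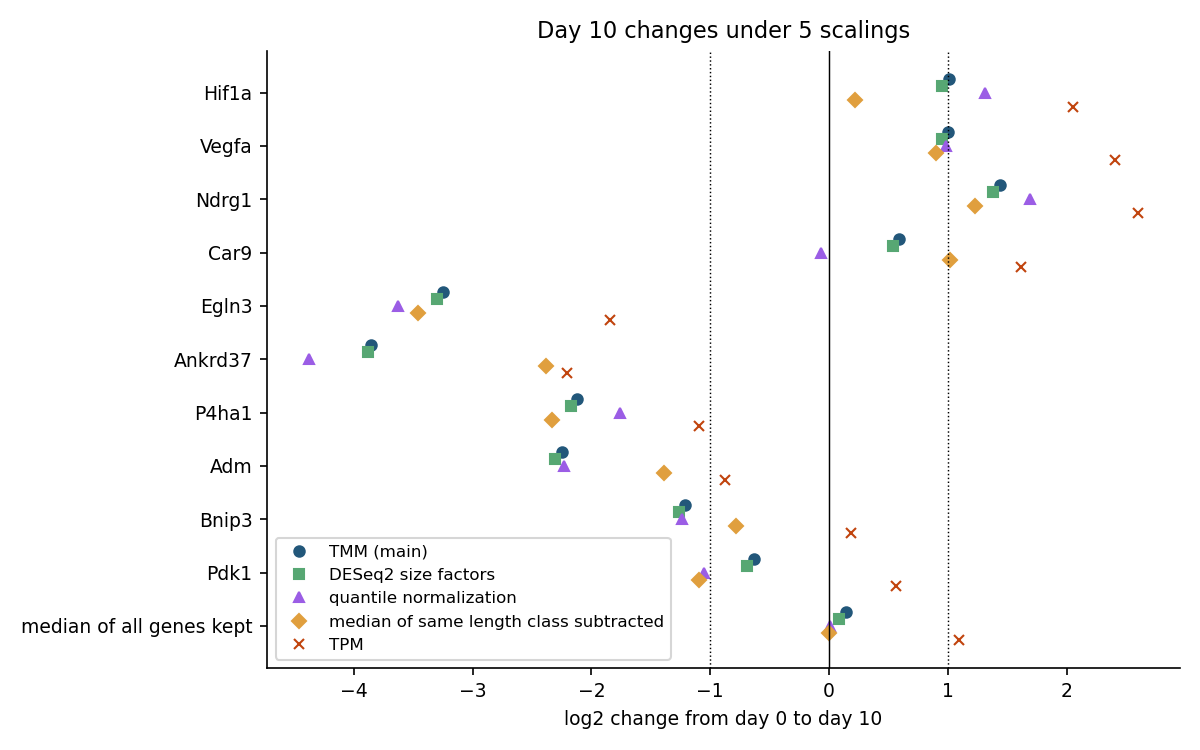
Log2 change from day 0 to day 10 (x axis) of the 10 genes and the median of all genes kept (y axis) under TMM, DESeq2 size factors, quantile normalization, TMM with the median of the same length class subtracted, and TPM, with dotted lines at 2-fold. The TPM crosses lie to the right, with a median of all genes of 1.09, and *Hif1a* ranges from 0.22 to 2.06 and *Bnip3* from -1.26 to 0.19.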

How the data were processed

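Total RNA of MEFs in 5C medium was sequenced at 5 time points with 1 library each, assigned to days by the labels. The deposited expected counts are RSEM's estimates of reads per gene, not scaled for depth. The TPM and FPKM values that the authors deposited with them are levels per gene length and depth. The submitters' processing notes name Bowtie, RSEM and mm10 without versions, and the annotation is not given in the sources used here. Main results came from the expected counts, and TPM served for levels between genes and as an alternative, while FPKM was not used. The library kit (TruSeq RNA) does not mark strand.

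GENCODE M21 (GRCm38) gave symbols for 27247 of the 27729 identifiers. Expected counts were rounded to compute TMM library sizes in edgeR 4.0.16 (R 4.3.3), and log2 changes used a pseudocount of 1. Levels and changes carry exact 95% intervals of the rounded counts (Poisson for 1 library, Clopper-Pearson for a pair of libraries). These cover counting error only, since the reads carry no molecular identifiers. Totals were 2253748 to 3890334 expected counts. A single library per day allows no test between days.

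The 10 genes, the gene lists and the rule for names were chosen with earlier results of these data known. Named from each list were up to 3 genes with the largest change among those with 100 or more counts in 1 or more libraries, and the direct partners of the 10 genes. Some genes that this rule names are not reported here. Alternatives were DESeq2 1.42.0 size factors, TPM, quantile normalization, TMM sizes without Gm42418 and Lars2, subtraction of the median of the same length class, pseudocounts, filters and thresholds. Library sizes without day 2 were added after seeing the data. The computations were tested on simulated data. Promoters came from RefSeq (GRCm38.p6). Python 3.11.15, numpy 2.4.6, scipy 1.17.1 and pandas 2.3.3 were used.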

Additional observations from a re-analysis of the deposited data

How the results depend on the processing

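With DESeq2 size factors 37 of 40 calls (10 genes on 4 days) were kept, with quantile normalization 37, without Gm42418 and Lars2 40, with the length medians subtracted 32, with a pseudocount of 5 38, without a pseudocount 38 of 39, and without the day 2 library 30 of 30. TPM kept 26 of 40. With TPM, 3 genes were called higher (*Hif1a*, *Vegfa* and *Car9*) and 2 lower on day 5, 3 lower on day 10, and 3 higher (*Hif1a*, *Vegfa* and *Ndrg1*) and 3 lower on day 14, and the medians of the 10 genes were -0.34, 0.38 and -0.094 on days 5, 10 and 14. *Bnip3* on day 10 turned to 0.19. Relative to the TPM shift of all genes, the medians of the 10 genes stayed below 0 on each day.

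The number of genes called higher on day 5 was 1 with the length medians subtracted and 1 without a pseudocount (*Car9*), against 0. On day 10 it was 1 with DESeq2 size factors, 1 with a pseudocount of 5 and 0 at 4-fold, against 3, since *Hif1a* and *Vegfa* lay at the threshold, and on day 14 it was 0 at 4-fold. The number called lower at 4-fold was 1 on day 2, 2 on day 5 and 3 on day 14, and with 10 or more counts in every library it was 3 on days 2, 10 and 14. Depth limits *Car9* and *Ankrd37*, which had under 10 counts in 4 libraries each. No paired analysis was possible because each time point has 1 library. No replicate could be left out for the same reason.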
